A study of Mus musculus with 12 samples.

Results

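In a DamID-seq profile of Runx1b, 10 genes of the Hippo pathway were examined, namely the transcription factors Tead1, Tead2, Tead3 and Tead4, the coactivators Yap1 and Wwtr1 (TAZ), the kinases Lats1 and Lats2, the Tead cofactor Vgll4 and the angiomotin relative Amotl1. They were taken by gene symbol from the deposited gene table. Of the 10 genes, 8 had a row among the 5867 genes of the table, with 29 of its 8133 distinct called regions, and Tead2 and Lats1 had none. The choice of genes was made with the region number of Tead1 already known, so region numbers, reads and reads per kilobase are given as a description, with no test.

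Runx1 is the transcription factor that haemogenic endothelium, the endothelium from which blood cells bud, needs to make blood, and Runx1b is one of its isoforms. The study set haemogenic endothelium with a Runx1b::Dam fusion (line iRunx1b::Damko, 6 libraries) against the same cell type with Dam alone (line iDamko, 6 libraries). Both lines were made from mouse embryonic stem cells of strain 129 and are runx1-/-, so neither has functional Runx1 of its own. Embryoid bodies gave FLK1+ cells, which spent 2 days in liquid blast culture before a last sort, in each line for cKIT+ TIE2+ CD41- cells in 2 libraries and for FLK1 in 4. Each line had 3 biological replicates, and the other 3 libraries are called technical. All technical libraries came from the FLK1 sort, whereas the libraries they are named after came from the cKIT+ TIE2+ CD41- sort. The remaining biological replicate of each line had the FLK1 sort only. The sources used here do not say whether a line is 1 clone, and DamID does not read expression, so the cell type rests on these surface markers. In DamID the bacterial methylase Dam marks adenines in GATC sequences near the place where the fusion protein sits, and the marked fragments are sequenced.

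The table holds 1 read count per gene, summed over the regions assigned to that gene, and no value per library. Neither the depth of a library nor the spread between replicates can be read from it, and the Runx1b::Dam signal at a gene cannot be set beside the Dam signal. Intervals given below are exact 95% Poisson intervals and cover counting error only. They hold no spread between replicates, and they are too narrow where reads are PCR copies, which are not independent molecules. A gene of the table had a median of 683 reads per kb of region, with quartiles of 515 and 918.

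The Hippo pathway passes signals from cell contacts, shape and tension to transcription. The Lats kinases phosphorylate the coactivators Yap1 and Wwtr1, which keeps them out of the nucleus, and without that phosphorylation the coactivators enter the nucleus and bind Tead proteins, which hold the DNA. Vgll4 binds the same Tead proteins and competes with Yap1, and angiomotin proteins such as Amotl1 hold Yap1 at junctions and at actin. In the mouse, Yap1 and Wwtr1 act in the growth of blood vessels, and Tead4 is known for its part in the first lineage of the embryo.

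The share of members with a region, 8 of 10 genes, stood beside 20.9% of all 21900 protein-coding genes, and nothing is read from this difference, because the genes were chosen with these results known. Long genes held a region more often. In 10 equal classes of protein-coding genes by RefSeq length the share was 45.3% in the longest class, which holds Tead1, Wwtr1, Vgll4 and Amotl1, against 3.24% in the shortest. Among all protein-coding genes of the length classes that hold the 10 members the share was 28.9%. These classes were pooled without weights, although the longest class holds more of the members than any other. At least 1 region assigned to no other gene was found at 8 of the 10 members, beside 18% of all protein-coding genes. That share counts genes with or without a region. Among the 4583 protein-coding genes with a region, 3940 had such a region, as had all 8 members with a region. Of the members, 5 had 2 or more regions (Tead1, Tead4, Wwtr1, Lats2 and Vgll4), beside 6.42% of all protein-coding genes. Among the 4583 protein-coding genes with a region, 1406 had 2 or more. Above the median reads per kb of the table stood 5 of the 10 members (Tead1, Tead4, Lats2, Vgll4 and Amotl1), beside 10.6% of all protein-coding genes, with or without a region.

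No mm9 genome was used, so the bases of the called regions are not shown, and which exons, introns or promoters they cover was not determined. The letters at the start of the genes can be shown from RefSeq in GRCm38.p6, which is another build. Promoters were at hand for 8 of the 10 members, all but Tead1 and Tead4, so the motif counts do not cover these genes. The 250 bases before the annotated start were searched on both strands for GATC, the Dam target, which reads the same on both strands. It stood before 4 of the 8 genes (Amotl1, Tead3, Wwtr1 and Yap1), beside 45.5% of 27025 genes. GGAATG, the motif that Tead factors bind, stood on either strand before 4 of the 8 (Tead3, Vgll4, Wwtr1 and Yap1), beside 14.4% of those genes. Of the core Runx motif, the form TGTGGT stood in 0 of the members' 12 promoter windows, as some genes have several starts, beside 14.0% of 32851 windows of all genes. The form TGCGGT stood in 0 of the 12 windows as well, beside 5.10% of all windows. No matches overlapped in the members' promoters. A match says only that the letters are in the window, and a window without them says nothing about the factor.

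The promoters of 5 members are printed to show which letters Dam could mark at the paralogous coactivators, at the member with the most reads per kb and at the members without a region. They are written 5′ to 3′ along the gene, with the Dam target and the Tead motif in capitals. Yap1 is chr9:8004597-8004846 and Wwtr1, the upstream one of its 2 windows, is chr3:57575911-57576160, both on the minus strand. Vgll4 is chr6:114969204-114969453 on the minus strand. Lats1 is chr10:7680959-7681208 and Tead2 chr7:45215542-45215791, both on the plus strand.
Yap1: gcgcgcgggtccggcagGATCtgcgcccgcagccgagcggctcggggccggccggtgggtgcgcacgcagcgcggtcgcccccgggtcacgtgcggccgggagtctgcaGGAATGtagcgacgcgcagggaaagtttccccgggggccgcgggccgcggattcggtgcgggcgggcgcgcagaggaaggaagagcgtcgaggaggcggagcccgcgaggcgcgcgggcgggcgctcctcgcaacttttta
Wwtr1: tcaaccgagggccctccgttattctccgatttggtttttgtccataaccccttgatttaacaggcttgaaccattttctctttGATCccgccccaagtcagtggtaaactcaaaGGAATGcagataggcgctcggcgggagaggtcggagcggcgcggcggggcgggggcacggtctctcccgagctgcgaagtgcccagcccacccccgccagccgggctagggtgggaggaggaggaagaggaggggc
Vgll4: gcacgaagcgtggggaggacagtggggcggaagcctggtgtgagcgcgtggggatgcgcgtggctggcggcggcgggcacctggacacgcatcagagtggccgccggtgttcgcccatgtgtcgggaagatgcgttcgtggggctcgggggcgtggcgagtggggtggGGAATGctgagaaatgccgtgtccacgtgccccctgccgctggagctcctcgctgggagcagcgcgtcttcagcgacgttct
Lats1: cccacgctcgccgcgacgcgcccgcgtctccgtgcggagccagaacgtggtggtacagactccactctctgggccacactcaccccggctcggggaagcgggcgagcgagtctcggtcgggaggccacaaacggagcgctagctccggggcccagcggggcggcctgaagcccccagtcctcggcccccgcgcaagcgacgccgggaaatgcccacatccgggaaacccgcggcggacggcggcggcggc
Tead2: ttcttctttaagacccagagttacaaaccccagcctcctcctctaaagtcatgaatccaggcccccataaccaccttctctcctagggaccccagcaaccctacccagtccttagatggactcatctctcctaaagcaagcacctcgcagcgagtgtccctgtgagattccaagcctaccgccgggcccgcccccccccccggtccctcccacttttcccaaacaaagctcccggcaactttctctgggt

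The Dam target began at base -233 from the start in Yap1 and at -167 in Wwtr1, and the Tead motif followed at -141 in Yap1 and at -136 in Wwtr1. The Vgll4 window held the Tead motif at -82 and no Dam target. The windows of Lats1 and Tead2 held neither, and neither did those of Lats2, which had 3 regions.

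Tead1 (ENSMUSG00000055320), which the mouse heart needs for its growth, had 14 regions with 36872 reads. In mm9 they began with chr7:119823781-119829081 and ended with chr7:120009981-120012931, a span of 189 kb. All 14 regions were assigned to Tead1 alone. Only 2 genes of the table had more regions, the gene model AC114005.5 with 59 and the growth factor receptor gene Fgfr2 with 19. The regions of AC114005.5 were spread over 4317 kb and 32 of the 59 were its own, and those of Fgfr2 lay over 3032 kb with 12 of the 19 shared with other genes. Of the protein-coding genes in the longest RefSeq class, 0 had more regions than Tead1. Fgfr2, with 104 kb, falls in the class below it, and AC114005.5, also labelled protein-coding, is in none of the classes.

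The 14 regions were not spread evenly over Tead1. The first 12, counted along the chromosome, lay in 101.4 kb and covered 38.95 kb of it (38.4%). The next 2 followed after gaps of 42.2 and 40.15 kb, at chr7:119967381-119969831 and chr7:120009981-120012931. Of the 13 gaps between neighbouring regions of Tead1, 7 were under 5 kb, the narrowest 1.2 kb. The median gap was 4.6 kb, against 14.25 kb within the 1628 genes of the table that had 2 or more regions, of which 980 had exactly 2. Nearer in kind are the other protein-coding RefSeq genes with 10 or more regions. Their median gap was 6.8 kb at Mtss1, 7.175 kb at Tspan9, 7.725 kb at Msi2, 8.6 kb at Zmiz1 and 10.7 kb at Frmd4a, and 13.7 to 84.6 kb at the rest. Where regions closer than 10 kb were merged, Tead1 kept 5 separate stretches, 31 genes had more and 40 other genes had as many.

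**Figure D1:**
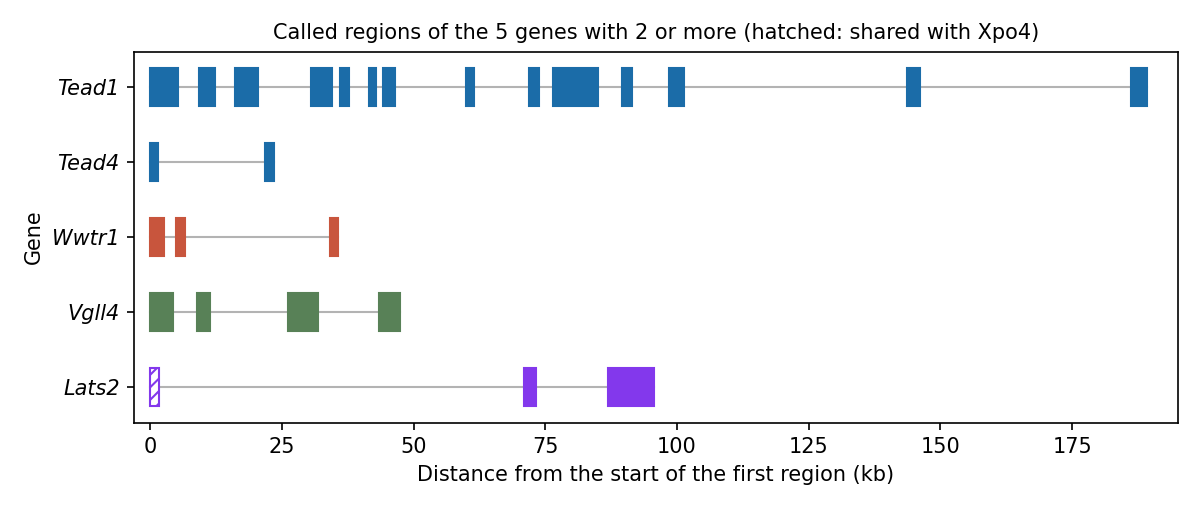
Called regions of the 5 members with 2 or more regions, drawn to scale as bars against the distance in kb from the start of the gene's first region; the hatched bar of Lats2 is also assigned to Xpo4. The first 12 of the 14 regions of Tead1 lie in 101.4 kb, and the 4 of Vgll4 in 47.45 kb.

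Counted from each region over the next 100 kb, the stretch at Tead1 held 12 regions and was the fullest of the table, and the fullest stretch outside it held 10, at Ahnak and Eef1g on chromosome 19, named after their values were seen. The median stretch held 2. The widest Tead1 regions were chr7:119900181-119908781 with 8.6 kb and chr7:119823781-119829081 with 5.3 kb, whereas the narrowest, chr7:119865281-119866731, had 1.45 kb. Of all regions, 57 were as wide as the 8.6 kb region or wider, and 9 of the 14 regions of Tead1 exceeded the median width of 2.1 kb.

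**Figure D2:**
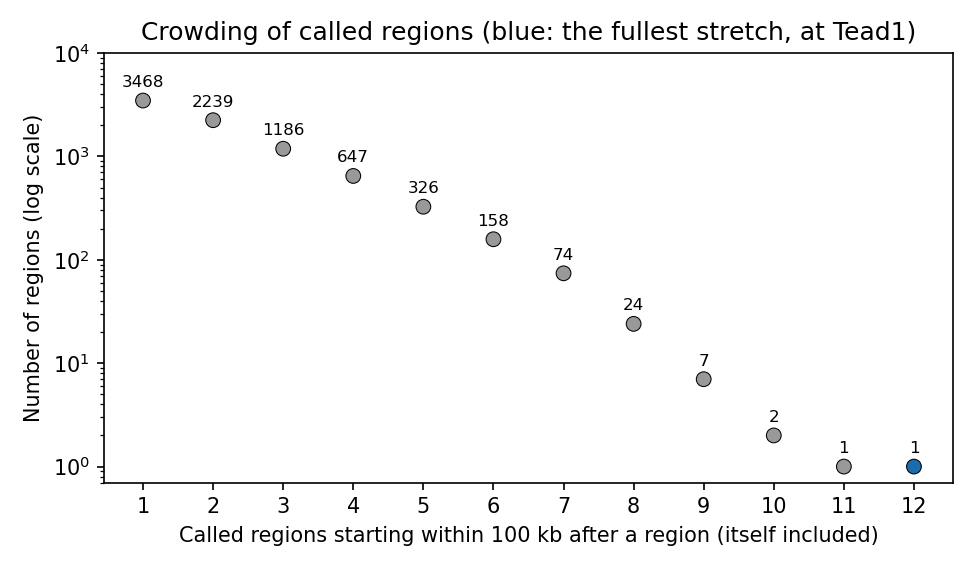
Number of called regions (log axis) by how many regions start within 100 kb after their start, themselves included, over all 8133 regions. The blue point is the stretch of 12 regions at Tead1, and 3468 regions had no other region starting in that distance.

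Tead1 was high in region number and total reads but not in reads per kb. It had 831 reads per kb (823 to 839.7), more than 67.5% of the genes in the table, while its total of 36872 reads exceeded that of 99.9% of genes. The genes nearest to it in region number, and then in reads per kb, were Msi2, an RNA-binding protein of stem cells, with 13 regions and 742 reads per kb, Sgms1, a sphingomyelin synthase, with 13 regions and 624 reads per kb, and Frmd4a, a scaffold of cell polarity, with 12 regions and 773 reads per kb. The covered part of the span was 23.4% at Tead1, 12.8% at Msi2, 17.3% at Sgms1 and 7.60% at Frmd4a. At other protein-coding RefSeq genes with 10 or more regions it was 20.7% at Mtss1, 20.1% at Zmiz1 and 18.6% at Tspan9. It was lower at Magi1 (12.1%), Rere (10.2%), Auts2 (2.32%) and Fgfr2 (1.57%). The likeness of these genes to Tead1 rests on 1 value per gene, with no samples behind it.

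The other Tead genes had few regions. Tead4 (ENSMUSG00000030353) had 2, at chr6:128228919-128230469 and chr6:128250719-128252519, which lie 20.25 kb apart and are both narrower than the median region, with 1.55 and 1.8 kb. Its 2609 reads gave 778 reads per kb (749 to 809), below the interval of Tead1. Tead3 (ENSMUSG00000002249), known from human placenta, had a single region, chr17:28483414-28485814, with 851 reads and 354 reads per kb (331 to 379). That was the lowest of the 8 members with a region, and only 10.2% of the genes in the table had fewer reads per kb. Tead2, which is expressed in the early mouse embryo, had no region. Tead3 and Tead2 are the shortest genes of the family, with 19.1 and 17.7 kb in RefSeq, against 227 kb for Tead1 and 73.7 kb for Tead4.

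**Figure D3:**
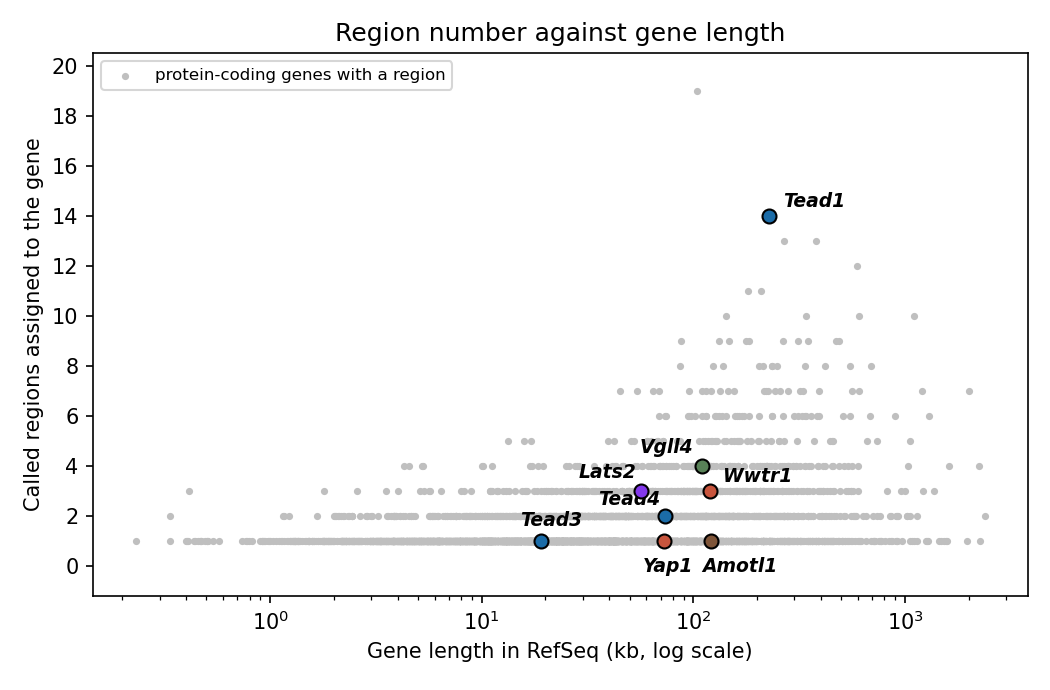
Called regions per gene against gene length in RefSeq (kb, log axis) for protein-coding genes with a region (grey) and the 8 members with a region (coloured, named). Tead1 stands at 14 regions, and the other 7 members have 1 to 4.

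The paralogous coactivators had nearly the same density of reads. Yap1 (ENSMUSG00000053110) had 1 region, chr9:7959651-7961051, with 953 reads and 680.2 reads per kb (638 to 725). Only 6.65% of all regions were narrower than its 1.4 kb. Wwtr1 (ENSMUSG00000027803) had 3 regions, chr3:57343002-57345652, chr3:57347952-57349702 and chr3:57377202-57378652, with 3979 reads and 679.8 reads per kb (659 to 701). The intervals of both overlapped and both held the table's median. Wwtr1 had more regions and more reads than Yap1, with reads per kb that lay within counting error of those of Yap1. The first 2 regions of Wwtr1 were 2.3 kb apart and the third followed after 27.5 kb.

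Vgll4 (ENSMUSG00000030315), the cofactor that competes with Yap1 for Tead proteins, had the highest density of the members, with 1167 reads per kb (1150.2 to 1183) from 19369 reads. Its 4 regions were chr6:114822869-114827169, chr6:114831769-114834269, chr6:114848969-114854819 and chr6:114866369-114870319. They lay in 47.45 kb, covered 16.6 kb of it and were all wider than the median region, with widths of 4.3, 2.5, 5.85 and 3.95 kb. Fewer reads per kb were found at 87.5% of all genes, and at 92.1% of the 151 genes with 4 regions.

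Lats2 (ENSMUSG00000021959) came next, with 14163 reads over 3 regions and 1115 reads per kb (1097 to 1133). Its first region, chr14:58284226-58285876, was also assigned to the neighbouring gene Xpo4, a nuclear export receptor, as that gene's only region, with 2849 reads and 1726 reads per kb (1663 to 1790.2). Without it, Lats2 had 11314 reads in chr14:58355176-58357476 and chr14:58371126-58379876, at 1024 reads per kb (1005 to 1043), a density above that of 81.1% of genes. The last of these was the widest region of all members, with 8.75 kb. The 3 regions spanned 95.65 kb, more than the 56.6 kb of the gene in RefSeq, whereas the 2 that were its own spanned 24.7 kb. Genes on chromosome 14 had a median of 865 reads per kb, and the density of Lats2 was 1.63 times the median of the table but 1.29 times that of its chromosome. The part of the chromosome in this value was not tested. Lats1, its paralogue, had no region.

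Amotl1 (ENSMUSG00000013076) had 1 region of 2.65 kb, chr9:14419451-14422101, with 1913 reads and 722 reads per kb (689.6 to 755). This was above the density of 55.1% of genes, and its interval overlapped those of Tead4, Yap1 and Wwtr1. By reads per kb the members therefore ran Vgll4, Lats2, Tead1, Tead4, Amotl1, Yap1, Wwtr1 and Tead3. Neighbours in this order had separate intervals except Tead4 and Amotl1, Amotl1 and Yap1, and Yap1 and Wwtr1. The intervals hold no spread between libraries, so whether the order would hold across replicates is not known. Lats2 kept its place when the region shared with Xpo4 was left out. By regions per 100 kb of gene the order was another, with 6.16 at Tead1, 5.30 at Lats2, 5.23 at Tead3, 3.66 at Vgll4, 2.71 at Tead4, 2.49 at Wwtr1, 1.38 at Yap1 and 0.826 at Amotl1. Tead3, lowest in reads per kb, stood near the top here with 1 region in a short gene. This measure is high in short genes with a single region, and Fgfr2, with many of its regions shared, had 18.2. Mtss1, with 10 regions and none shared, had 7.01, more than Tead1.

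**Figure D4:**
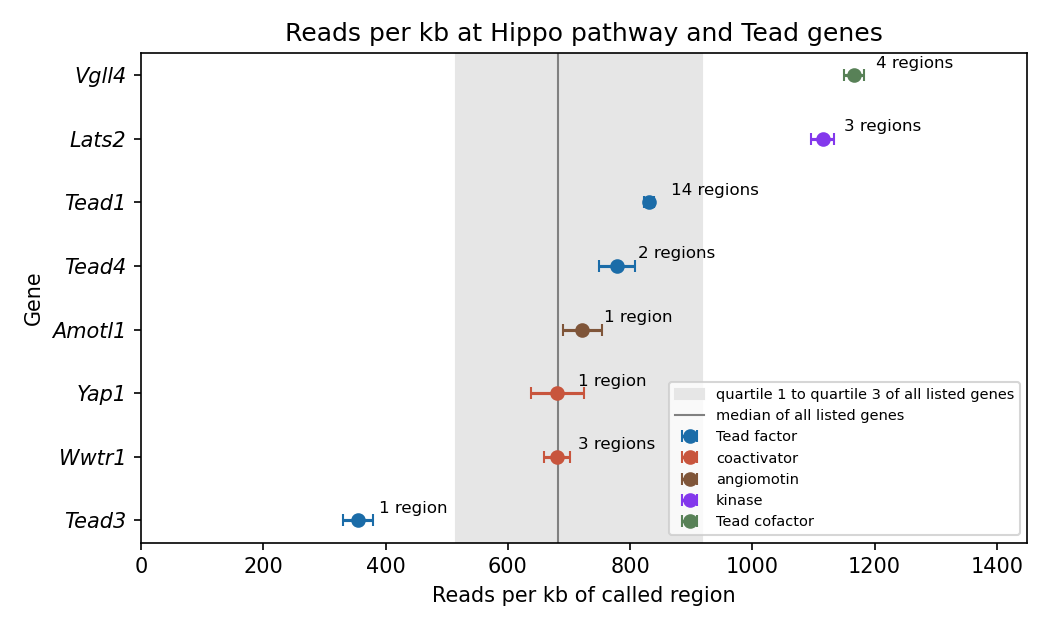
Reads per kb of called region for the 8 members with a region, with exact 95% Poisson intervals (counting error only), coloured by role and labelled with the number of regions. The grey band spans quartiles 1 and 3 of all 5867 genes and the line is their median of 683; Vgll4 and Lats2 lie above the band, Tead3 below it and the other 5 inside it.

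Hippo genes other than the members had a region in 32 of 59 cases (54.2%, exact Clopper-Pearson 95% interval 40.8 to 67.3), beside the 20.9% of all protein-coding genes. The 32 with a region had a median density of 764 reads per kb, beside 683 for the whole table. The 59 genes were long, with a median of 53.9 kb against 17.1 kb for all protein-coding genes. The part of length in the share with a region was not tested. No test was made on the lists. Nothing is read from the difference in shares, because the lists were chosen with earlier results of these data known. The genes were grouped in 5 lists by role, and 3 genes stood in more than 1 list.

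Among upstream kinases and adaptors 6 of 15 genes had a region. The highest reads per kb were at Wwc2, a relative of the scaffold Kibra (1082), at Stk38l, a kinase related to Lats (775), at Taok3, of a kinase family that activates the MST kinases (753), and at Nf2, which encodes the membrane adaptor merlin (742). The core kinases Stk3 and Stk4 (MST) and their scaffold Sav1, named after their values were seen, had no region, like Lats1. Of the Fat and Dachsous cadherins and their modifier, 2 of 7 had one. These were the cadherin Fat1, with 3 regions at 1172 reads per kb, and Fjx1 at 879. The fly counterpart of Fjx1 is a kinase that acts on cadherins.

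Junction and polarity proteins numbered 15, of which 9 had a region. Most reads per kb were found at Ajuba (Jub in the table), a LIM protein that restrains Lats kinases, with 2046 reads per kb (1976 to 2117), and at Patj (Inadl), a polarity scaffold, with 1517. Tjp1, the tight junction protein ZO-1, followed with 939 over 3 regions and the angiomotin Amotl2 with 849 over 3 regions. Of the other Tead cofactors 2 of 4 had a region, Wbp2, a partner of Yap1, at 959 and Vgll3, a relative of Vgll4, at 58.4 with only 73 reads.

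The list of YAP and TAZ target genes known from human cells, without Lats2, held a region in 16 of 21 genes (76.2%, 52.8 to 91.8), beside 20.9% of all protein-coding genes. Nothing is read from this difference, because the list was chosen with earlier results of these data known. Its genes had a median length of 32.4 kb against 17.1 kb for all protein-coding genes, and the part of length was not tested. Of the 21, 11 had 2 or more regions, beside 6.42% of all protein-coding genes, with or without a region. Among the 4583 protein-coding genes with a region, 1406 had 2 or more. The 16 target genes with a region had a median of 800.3 reads per kb, beside 683 for the whole table. The highest were Gadd45a, a stress response gene, at 1759, Ccn1 (Cyr61), a secreted matrix protein, at 1573, Axl, a receptor kinase, at 1361 over 2 regions, and Arhgef17 at 993 over 4 regions. The Gadd45a region was also assigned to E230016M11Rik and the Ccn1 region to Gm17501. The 5 targets with no region, named after their values were seen, were Ccn2, F3, Igfbp3, Foxf2 and Nt5e. Above the table's median stood 5 of the 8 members with a region and 10 of the 16 target genes with one. Of all 4583 protein-coding genes with a region 2315 stood above it, a share close to both.

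**Figure D5:**
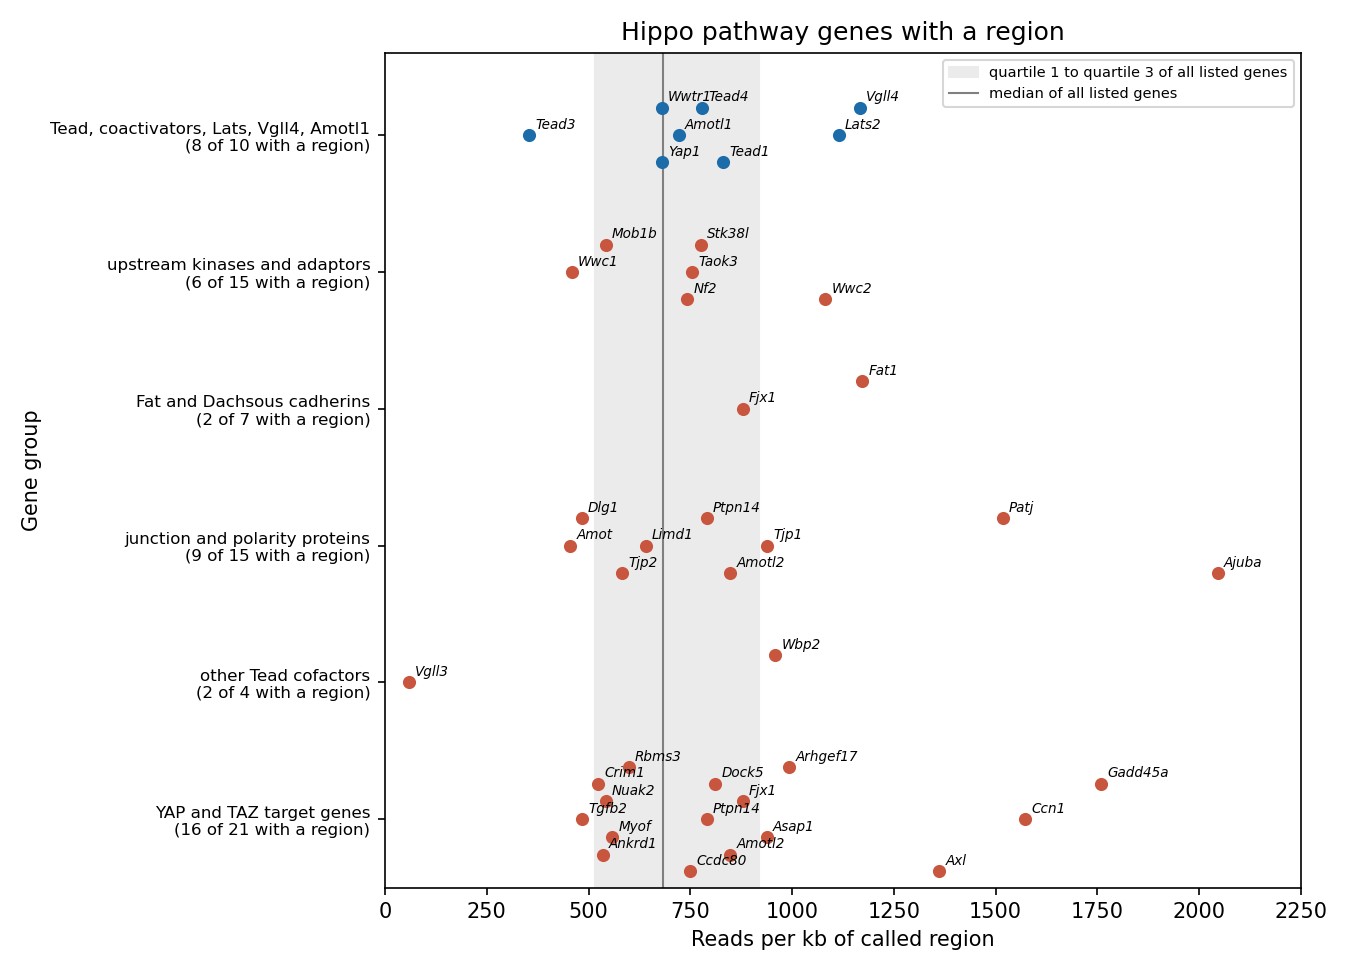
Reads per kb of called region for each Hippo gene with a region, by group, members in blue and the other lists in red; each row label gives how many genes of the list had a region. The grey band spans quartiles 1 and 3 of all listed genes. Ajuba at 2046 and Vgll3 at 58.4 are the extremes.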

How the data were processed

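The deposited table gives, per the file headers, a read count for each gene over the regions assigned to it, a signal (the read count per kilobase of region) and the region positions. In all 5867 genes the signal equalled the count divided by the summed region length within 0.005, both end positions counted. Per the submitters' processing notes the genome was mm9. Not given in the sources used here are the aligner, the region caller, how Runx1b::Dam was set against Dam, whether libraries were pooled, and how regions were assigned to genes. The table had 0 columns per library, so no test between the lines was made and the depth per library is unknown.

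Regions were parsed with Python 3.11.15 and pandas 2.3.3, and exact Poisson and Clopper-Pearson intervals computed with scipy 1.17.1. The merging of regions and the intervals were tested on simulated data, and the matching of symbols on made-up genes. Of 4771 protein-coding genes in the table, 4670 (97.9%) matched a RefSeq table of GRCm38.p6 by symbol or synonym on the same chromosome, which gave names, lengths, gene order and, for promoters, sequences. The planned comparison of Tead proteins was not made, as no protein sequences were used. Members and lists were chosen with earlier results of these data known. By rule the text names the 10 members, genes sharing their regions, up to 4 genes per list with the most reads per kb, and the 3 genes nearest to Tead1 in region number, then in log2 reads per kb, and, for their rank, genes among the 10 with the most regions. Other genes were named after their values were seen.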

Additional observations from a re-analysis of the deposited data

How the results depend on the processing

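With 2 or more regions required, 5 of the 8 members and 19 of the 32 other Hippo genes remained, beside 1406 of the 4583 protein-coding genes with a region. The same counts, 5 and 19, had more reads per kb than the table's median, beside 2315 of those 4583 genes. With all 49997 genes of any type as background 10.2% had a region in place of 20.9%. That background holds many non-coding genes, and these were matched by symbol only, without synonyms, so their share can be too low. Merging regions less than 10 kb apart left Tead1 with 5 regions in place of 14, and merging below 1 kb left all 14. Counting only regions assigned to a single gene left 8 members, 14 regions of Tead1 and 30 other Hippo genes. Defining width as end minus start kept the density of all 8 members inside its counting interval. Scaling to the chromosome's median moved 5 of the 8 members outside it, Lats2 most (1.29 in place of 1.63 times the median). Matching by current symbol alone left 8 members and 19% of the background. Ranked among protein-coding genes, 7 of the 8 members kept their percentile within its counting interval, and among genes with a single region 2 did. No paired analysis was possible because the table gives no value per library, and for the same reason no replicate could be left out. Intervals cover counting error in the deposited reads, which numbered 851 at Tead3, and the depth per library is unknown.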

Other observations

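Genes beside the members in RefSeq order were looked at after the values were seen. Of the 20 adjacent protein-coding genes 5 had a region, a share close to that of all protein-coding genes. Beside Tead4 lies Tspan9, a tetraspanin of the cell surface, which had 11 regions with 28366 reads and 1005 reads per kb, more than Tead4 in each measure. Beside Tead1 lies Parva, the integrin-linked adaptor alpha-parvin, with 3 regions, 6534 reads and 792 reads per kb. Birc3, an inhibitor of apoptosis beside Yap1, had 2 regions at 428 reads per kb, and the splicing factor gene Cwc15 beside Amotl1 had 1 at 444.

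The nearest called region outside Tead1 belonged to 2310014F06Rik, 35.6 kb from the first region of Tead1, with 704 reads per kb. On the other side the next region, at the clock gene Arntl, was 315.55 kb away. The single Yap1 region had its nearest neighbours at 84.85 kb (Birc3) and 5267 kb (Phxr4).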
